A study of Homo sapiens with 8 samples.

Results

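HOX genes encode homeodomain transcription factors and lie in 4 clusters, HOXA, HOXB, HOXC and HOXD, in which a gene's place in the cluster corresponds to its paralog number. The HOX genes described here were those whose array annotation gave a single symbol of HOXA, HOXB, HOXC or HOXD followed by a number, with antisense RNAs left out. This gave 29 of the 18244 genes measured. HOXA was represented by HOXA2 alone, HOXB by 10 genes (HOXB1 to HOXB9 and HOXB13), HOXC by 9 (HOXC4, HOXC5, HOXC6 and HOXC8 to HOXC13) and HOXD by 9 (HOXD1, HOXD3, HOXD4 and HOXD8 to HOXD13). The reference annotation holds 39 HOX genes, and the other 10, all in HOXA, were not analysed here. A gene was read from its brightest probe set by the mean of the 8 arrays, and levels are RMA values on the log2 scale.

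The 4 groups were A549 cells with EN2, A549 cells with the Neo vector, PC9 cells with EN2 and PC9 cells with the Neo vector, and each had 2 arrays. A549 and PC9 are established human lung adenocarcinoma lines. EN2 or Neo retrovirus was packaged in 293FT cells, and stably infected cells were selected with a drug, so all 4 groups had been through infection and selection. The vector cells are called NC, after the sample titles. The lines were cultured in different media, F-12K for A549 and Dulbecco's modified Eagle medium for PC9, so medium and line cannot be told apart. The labels name neither the promoter that drives EN2 nor whether the selected cells were clones. Nor do they state that the 2 replicates of a group came from different cultures, so the p-values rest on a spread between arrays that may be purely technical.

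In the embryo, HOX genes with low paralog numbers are expressed in anterior parts of the body axis and those with high numbers in posterior parts and limbs, and the combination of HOX proteins gives a segment its identity. HOX proteins bind short AT-rich sites with a TAAT core, often together with cofactors of the PBX, MEIS and PKNOX families. Polycomb proteins keep silent HOX genes repressed, and trithorax proteins keep active ones on. Adult cells of the lung keep part of the pattern of their origin, and cancer cell lines often differ in which HOX genes they express. EN2 is itself a homeodomain protein, of midbrain and hindbrain development, and is encoded outside the HOX clusters.

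RefSeq promoter windows of GRCh38.p14, from 250 bases before to 50 bases after the annotated start, were given for 12 of the 29 genes: HOXA2, HOXB1, HOXC4, HOXC5, HOXD1, HOXD3, HOXD4, HOXD8, HOXD10, HOXD11, HOXD12 and HOXD13. HOXD8, HOXD10 and HOXD11 are shown because these neighbours differed unequally between the lines on their brightest probe sets. For HOXD10 that difference was 0.32 (log2, A549 NC minus PC9 NC), but 1.85 on its dimmer probe set. The HOXC4 window is shown because HOXC5 has the same one. The windows lie at chr2:176129455-176129754 (HOXD8), chr2:176116528-176116827 (HOXD10), chr2:176107030-176107329 (HOXD11) and chr12:54016638-54016937 (HOXC4 and HOXC5), all on the plus strand. Capitals mark each TAAT, read on either strand, so that ATTA counts as well.
HOXD8 promoter: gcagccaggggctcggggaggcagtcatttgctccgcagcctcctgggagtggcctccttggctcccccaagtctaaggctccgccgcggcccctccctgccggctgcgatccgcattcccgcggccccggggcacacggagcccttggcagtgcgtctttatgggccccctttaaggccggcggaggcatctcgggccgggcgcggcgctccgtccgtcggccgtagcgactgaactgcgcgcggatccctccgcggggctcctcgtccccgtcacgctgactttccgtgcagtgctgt
HOXD10 promoter: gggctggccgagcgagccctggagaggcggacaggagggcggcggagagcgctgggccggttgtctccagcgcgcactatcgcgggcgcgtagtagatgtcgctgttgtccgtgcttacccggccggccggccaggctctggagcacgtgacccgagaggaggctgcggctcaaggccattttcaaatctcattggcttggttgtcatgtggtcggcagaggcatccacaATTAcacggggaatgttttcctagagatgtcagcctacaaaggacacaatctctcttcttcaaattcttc
HOXD11 promoter: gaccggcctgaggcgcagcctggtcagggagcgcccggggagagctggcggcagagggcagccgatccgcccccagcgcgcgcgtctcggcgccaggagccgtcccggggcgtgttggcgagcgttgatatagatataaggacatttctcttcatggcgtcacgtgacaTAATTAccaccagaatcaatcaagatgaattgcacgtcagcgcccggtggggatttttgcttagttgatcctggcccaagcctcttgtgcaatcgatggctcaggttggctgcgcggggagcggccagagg
HOXC4 and HOXC5 promoter: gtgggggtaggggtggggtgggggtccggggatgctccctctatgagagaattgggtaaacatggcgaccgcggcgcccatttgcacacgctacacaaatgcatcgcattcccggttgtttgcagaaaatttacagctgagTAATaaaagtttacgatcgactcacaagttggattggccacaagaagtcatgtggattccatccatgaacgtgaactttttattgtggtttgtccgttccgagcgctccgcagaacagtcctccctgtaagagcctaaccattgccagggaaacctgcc

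The HOXD8 window held no TAAT, and those of HOXD10, HOXD11 and HOXC4 held 1, 2 and 1. Of the 12 HOX windows, 10 held a TAAT, against 50.2% of all 35116 windows of the same length. The window shared by HOXC4 and HOXC5 is counted for each of them. The longer motif TGATNNAT, a PBX and HOX composite, was in 3 of the 12, among them HOXD11, and in 7.4% of all windows. The window of HOXD8 was 71.7% G and C with 34 CG dinucleotides, and that of HOXD11 62.3% with 27. HOXD10 had 60.0% with 23 and HOXC4 51.7% with 15, beside medians over all windows of 58.7% and 14. A motif match is a description of these letters and does not show a binding site.

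Between the lines the arrays were not on the same scale, which touches every comparison of A549 with PC9. The median difference over the 100 ERCC spike-in control probe sets was 0.19, higher in A549 NC than in PC9 NC. Genes with a mean level under 5 had a median difference of 0.34, those from 5 to 6 of 0.40, those from 6 to 7 of 0.19 and those above 7 of -0.07. The probe sets for 18S ribosomal RNA averaged 11.66 and 12.12 in A549 EN2 and 12.44 and 12.74 in A549 NC, with 6.05 to 6.10 on the PC9 arrays. Against the spike-in background described next, 6 of 6 epithelial markers and 2 of 3 leukocyte markers were above it in every group. Against the stricter one, 5 of 6 epithelial markers were above it in both A549 groups and 6 of 6 in both PC9 groups, and 0 of 3 leukocyte markers in any group. EN2 itself was at 7.71 and 7.62 in A549 EN2 against 6.48 and 6.57 in A549 NC, a change of 1.15 ± 0.09 (limma, SE; adjusted p = 0.00028). That change was 0.60 on the mean of its probe sets (adjusted p = 0.018), and it did not pass with the 18S signal as a covariate (1.11, adjusted p = 0.13) or without the 2 A549 arrays outermost in 18S signal (1.15, adjusted p = 0.070). In PC9 it was at 6.24 and 6.39 with EN2 against 5.86 and 5.78 with NC, a change of 0.50 ± 0.09 that did not pass (limma, adjusted p = 0.080).

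Most HOX probe sets lay above the spike-ins, but far fewer lay above a control background probe set with 20 G or C bases. A gene was counted as above background in a group when both arrays exceeded the 95th percentile of the spike-in probe sets on that array (4.34 to 4.43 in A549, 3.85 to 3.997 in PC9). By that measure 25 of 29 HOX genes were above background in A549 EN2, 26 in A549 NC, 24 in PC9 EN2 and 22 in PC9 NC. The same holds for 84.1%, 84.8%, 85.4% and 84.0% of all genes in these groups. Against the control background probe set with 20 G or C bases (6.14 to 6.22 in A549, 5.78 to 5.83 in PC9), a choice made after the data were seen, the counts were 14, 12, 14 and 14, and 59.1%, 58.4%, 60.4% and 60.1% of all genes were above it. That floor depends on the choice: on the A549 arrays the control sets with 17, 18, 20 and 21 G or C bases lay at 5.04 to 5.11, 5.61 to 5.70, 6.14 to 6.22 and 6.99 to 7.03, and the base content of the HOX probes was not used here. HOXC held 6, 5, 8 and 8 of these, HOXB 6, 5, 5 and 5, HOXD 2, 2, 1 and 1, and HOXA2 was not above it in any group. HOXD1 and HOXD12 were below the spike-in measure on every array of all 4 groups, so their values are not levels of the genes.

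**Figure D1:**
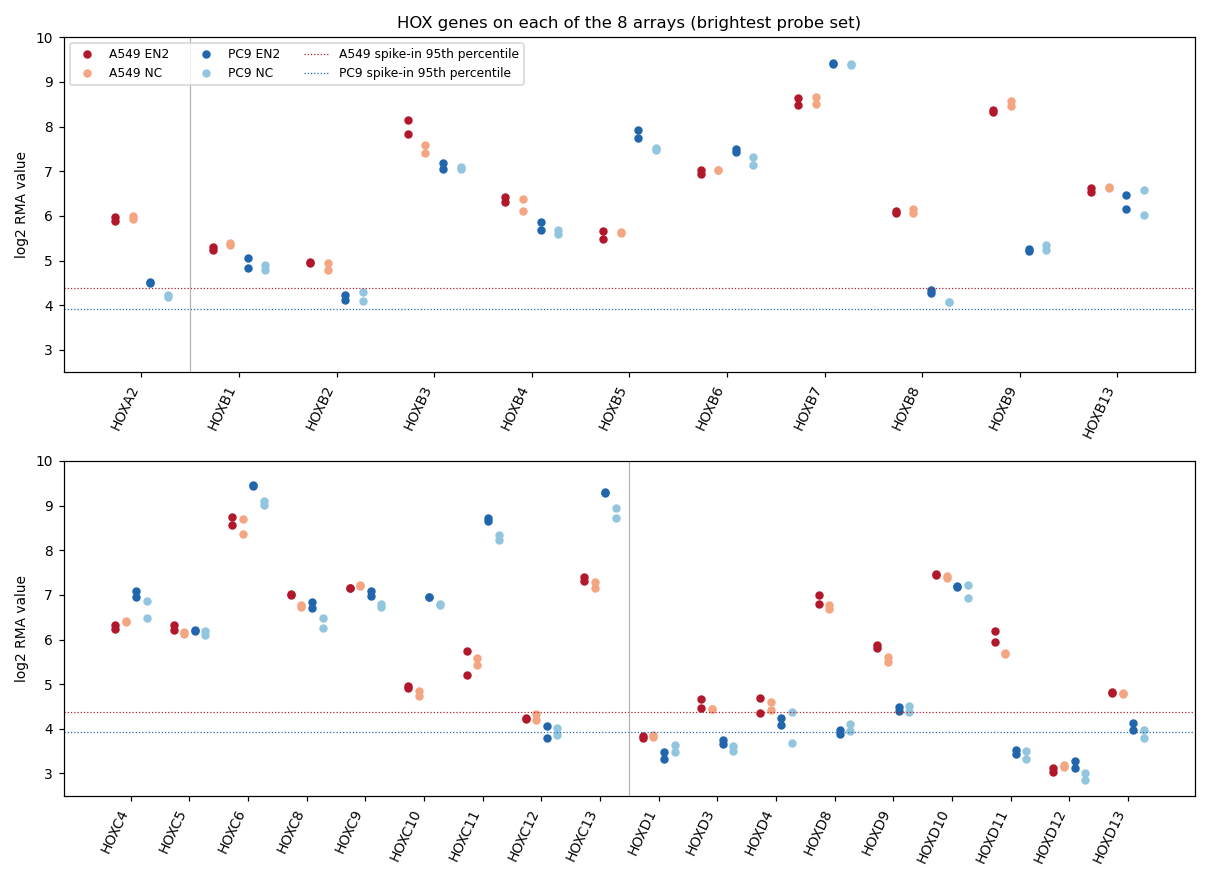
Level of the 29 HOX genes on each of the 8 arrays (y axis, log2 RMA value of the brightest probe set; x axis, genes in order of cluster and paralog number, with grey lines between clusters). Each point is an array, dotted lines are the mean spike-in 95th percentile of each line, and HOXB9, HOXD8 and HOXD11 are high in A549 while HOXC11, HOXC10 and HOXB5 are high in PC9.

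The lines carried different HOX patterns. Comparing the vector cells, A549 NC had higher HOXB8, HOXB9, HOXD8, HOXD9, HOXD11 and HOXA2, and lower HOXB5, HOXC10, HOXC11 and HOXC13, each with a measured difference of 1 or more on the log2 scale. Several of these genes lay near background in a line, and where a bound could be computed it is given with the gene. A bound sets the mean of the brighter line against the background measured on the dimmer line's arrays. It is not corrected for the scale difference between the lines, so for genes higher in A549 NC it can include part of that difference. By limma's test on all genes at an adjusted p under 0.05, 24 of 29 HOX genes (82.8%) differed, against a background of 75.8% of all genes. That background is so high that the count alone says little about HOX genes. In A549 NC 18 HOX genes were higher (62.1%, background 46.0%) and 6 lower (20.7%, background 29.7%). Counting only differences of at least 2-fold, 6 were higher (20.7%, background 12.8%) and 4 lower (13.8%, background 10.1%). Of the 18 higher genes, 15 were above the spike-in measure in A549 NC and 6 above the stricter background (HOXB3, HOXB9, HOXC8, HOXC9, HOXD8 and HOXD10). The 6 lower genes were all above both measures in PC9 NC. With quantile normalisation over all arrays, 12 HOX genes were higher and 9 lower, and the median over all genes moved to -0.03, against 0.17 as deposited. With the 18S signal as a covariate, which nearly coincides with line, 0 HOX genes were called.

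All 9 HOXD genes had a positive difference between A549 NC and PC9 NC, against 59.7% of all genes. Of these 8 were called higher, against 46.0% of all genes. Among the 8 were HOXD1 and HOXD12, whose values are not levels of the genes. Only HOXD8 and HOXD10 were above the stricter background in A549 NC. The 9 differences had a median of 0.88 beside 0.17 for all genes. Genes with a mean level under 5 had a median of 0.34, and those from 5 to 6 of 0.40. With quantile normalisation 8 of 9 were positive, HOXD1 turned to -0.06, and the median was 0.49. HOXD8, a gene of the middle of the cluster, had 6.78 and 6.69 in A549 NC against 4.11 and 3.96 in PC9 NC, a difference of 2.70 ± 0.10 (limma, SE; adjusted p = 8.7e-09). HOXD11, which in mice patterns the forearm and kidney together with its paralogs, had 5.68 and 5.70 in A549 NC against 3.31 and 3.51 in PC9 NC, a difference of 2.28 ± 0.11 (adjusted p = 5e-08). Every A549 array was above every PC9 array for both genes. Among all 18244 genes, both A549 NC arrays lay above both PC9 NC arrays for 9751. PC9 NC was below the spike-in measure for HOXD11, so its difference is a bound of at least 3.30-fold, computed from that measure. Neither A549 NC array of HOXD11 was above the stricter background, so no bound can be given against it. For HOXD8 the stricter background gives at least 1.89-fold.

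HOXD9, HOXD13 and HOXD3 were also lower in PC9 NC, with values near background. HOXD9 had 5.50 and 5.60 in A549 NC against 4.51 and 4.39 in PC9 NC, a difference of 1.10 ± 0.09. HOXD13, which patterns the digits, had 4.77 and 4.80 in A549 NC against 3.80 and 3.98 in PC9 NC, 0.90 ± 0.09. Its value on PC9 NC replicate 1 was below the spike-in measure, so the size of that difference is uncertain. HOXD3 had 4.44 in both A549 NC arrays against 3.61 and 3.50 in PC9 NC, where it was below the spike-in measure. The PC9 measure gives 1.39-fold, but A549 NC lay little above the measure of its own arrays (4.38 and 4.34). That value is therefore not a firm lower bound. None of HOXD9, HOXD13 and HOXD3 was above the stricter background in either line. HOXD10, a gene of lumbar and limb patterning, was bright in both lines and differed by 0.32 ± 0.10. HOXD1 and HOXD12 differed by 0.27 and 0.23, values below background in both lines, and HOXD4 by 0.47 without passing (limma, adjusted p = 0.055).

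HOXB was split along its length. HOXB1 to HOXB4 were higher in A549 NC, HOXB5 to HOXB7 lower or not called, and HOXB8 and HOXB9 higher again. HOXB9, a gene of thoracic patterning, showed the largest difference of the 29, with 8.47 and 8.57 in A549 NC against 5.34 and 5.23 in PC9 NC (3.23 ± 0.08, limma, SE; 9.37-fold; adjusted p = 8.1e-10). The stricter background makes that at least 6.52-fold. HOXB8, which blocks myeloid differentiation when overexpressed, had 6.16 and 6.06 in A549 NC against 4.07 and 4.08 in PC9 NC (2.04 ± 0.08; adjusted p = 1.8e-08), and neither line was above the stricter background. In the opposite direction, HOXB5, a gene of lung branching, had 5.62 and 5.64 in A549 NC against 7.51 and 7.48 in PC9 NC (-1.87 ± 0.10; adjusted p = 8.9e-08), and the stricter background makes PC9 NC at least 2.44-fold higher. HOXB7 had 8.51 and 8.66 in A549 NC against 9.40 and 9.38 in PC9 NC (-0.81 ± 0.08). The arrays of the lines did not overlap for any of these 4 genes. That is common here: of all 18244 genes, 9751 had both A549 NC arrays above both PC9 NC arrays, and 6382 had both below.

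At the anterior end of HOXB the differences were smaller. HOXB2, a hindbrain gene, had 4.80 and 4.93 in A549 NC against 4.09 and 4.29 in PC9 NC (0.67 ± 0.10). HOXB4, known for expanding blood stem cells, had 6.10 and 6.38 in A549 NC against 5.68 and 5.59 in PC9 NC (0.60 ± 0.11). HOXB1 differed by 0.53 ± 0.10 and HOXB3 by 0.42 ± 0.12. HOXB1 and HOXB2 were not above the stricter background in either line, and HOXB4 was not above it on both A549 NC arrays. The control background probe sets with 17 and 18 G or C bases themselves differed by 0.49 and 0.57 between the lines. With quantile normalisation HOXB2, HOXB3 and HOXB4 were still called and HOXB1 was not (0.12, limma, adjusted p = 0.28). HOXB6 at -0.20 (adjusted p = 0.058) and HOXB13, the prostate gene, at 0.34 (adjusted p = 0.086) did not pass. The median over HOXB was 0.48.

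HOXC was split, with HOXC6, HOXC10, HOXC11 and HOXC13 called lower in A549 NC and HOXC8, HOXC9 and HOXC12 called higher. HOXC11 had 5.43 and 5.59 in A549 NC against 8.22 and 8.33 in PC9 NC (-2.77 ± 0.15, limma, SE; adjusted p = 1.3e-07), and the stricter background makes PC9 NC at least 4.19-fold higher. HOXC10, which specifies lumbar motor neurons, had 4.73 and 4.84 in A549 NC against 6.79 and 6.76 in PC9 NC (-1.99 ± 0.08; adjusted p = 2.1e-08). Against the stricter background PC9 NC was at least 1.48-fold higher for HOXC10. HOXC13, a gene of hair and nail, had 7.30 and 7.15 in A549 NC against 8.72 and 8.95 in PC9 NC (-1.61 ± 0.10; adjusted p = 2.3e-07). None of these 3 genes had an A549 array as high as a PC9 array. Among all 18244 genes, both A549 NC arrays lay below both PC9 NC arrays for 6382. HOXC6 had 8.69 and 8.36 in A549 NC against 9.11 and 9.005 in PC9 NC (-0.53 ± 0.11). HOXC8 at 0.37 and HOXC9 at 0.45 were higher in A549 NC, as was HOXC12 at 0.32, which was not above the spike-in measure on both arrays of either line. HOXC4 (-0.27, adjusted p = 0.067) and HOXC5 (-0.01, 95% interval -0.20 to 0.19) did not pass. With quantile normalisation HOXC4 and HOXC5 were called lower, HOXC8 was no longer called, and HOXC12 turned to -0.07. HOXC4, HOXC5 and HOXC6 share an annotated start in the reference, so a probe set can read transcripts of more than 1 of them.

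The only HOXA gene measured, HOXA2, a gene of the hindbrain and second pharyngeal arch, had 5.99 and 5.94 in A549 NC against 4.18 and 4.24 in PC9 NC. The difference was 1.75 ± 0.08 (limma, SE; adjusted p = 5e-08). Neither line was above the stricter background. Its second probe set differed by 1.76.

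**Figure D2:**
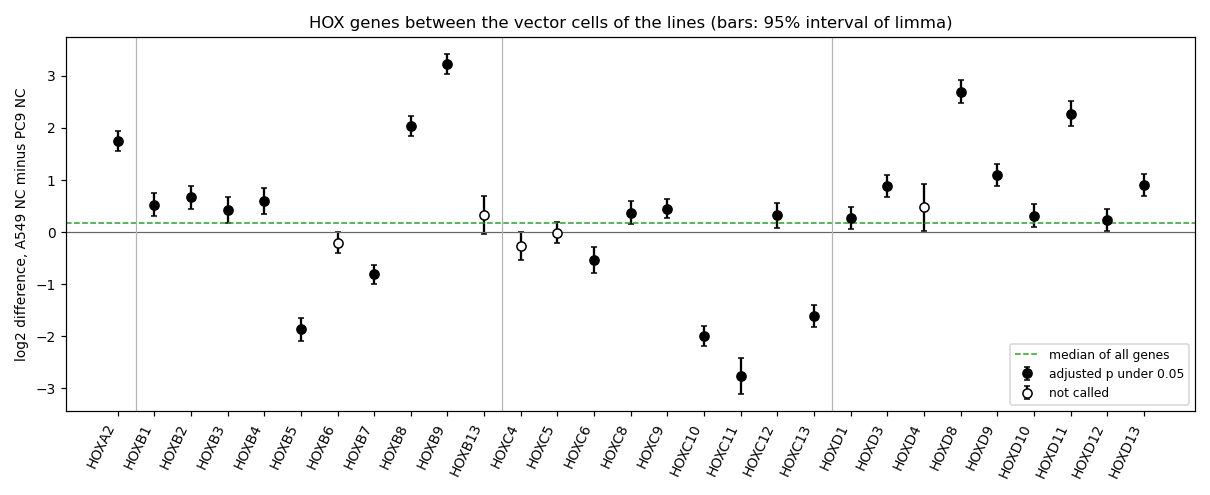
Difference between the vector cells for each HOX gene (y axis, log2 difference A549 NC minus PC9 NC, with the 95% interval of limma; x axis, genes by cluster and paralog number). Filled points passed an adjusted p of 0.05, the dashed line is the median of all genes at 0.17, and the points run from -2.77 for HOXC11 to 3.23 for HOXB9.

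Read by paralog number, some groups had differences of the same sign across clusters and others did not. All 3 paralog 8 genes and all 3 paralog 9 genes were higher in A549 NC, with medians of 2.04 and 1.10. Among all genes 59.7% had a positive difference and 46.0% were called higher. HOXB8 and HOXD9 were not above the stricter background in either line, and HOXC8 was not called with quantile normalisation. None of the 5 genes of paralogs 5, 6 and 7 was higher. Paralogs 10, 11 and 13 split by cluster: HOXC10, HOXC11 and HOXC13 were lower in A549 NC, and HOXD10, HOXD11 and HOXD13 higher. These groups hold 1 to 3 genes each, and the counts are descriptions.

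Between the vector cells, the genes with several probe sets had the same sign on each, but not always the same size or call. Of the 29 genes, 13 had several probe sets and 16 had 1, 49 probe sets in all. In the line comparison all 13 had the same sign on every probe set, and 41 of 49 probe sets were called by limma, against 74.3% of the 45278 tested. The sizes did not always agree. HOXD10 differed by 0.32 on its brightest probe set and by 1.85 on the dimmer one, which read 6.29 and 6.09 in A549 NC against 4.23 and 4.45 in PC9 NC. The other HOXB13 probe sets differed by 0.81, 1.47 and 1.53, against 0.34 on the brightest. HOXB5 gave -1.87, -1.73 and -0.14, and HOXB1 gave 0.53, 0.01 and 1.02. For both genes the probe set of smallest difference was not called. HOXD8 gave 2.70 and 2.90, although both of its probe sets carry a suffix that marks probes shared with other transcripts. The brightest sets of HOXB3 and HOXD9 carry such a suffix too.

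**Figure D3:**
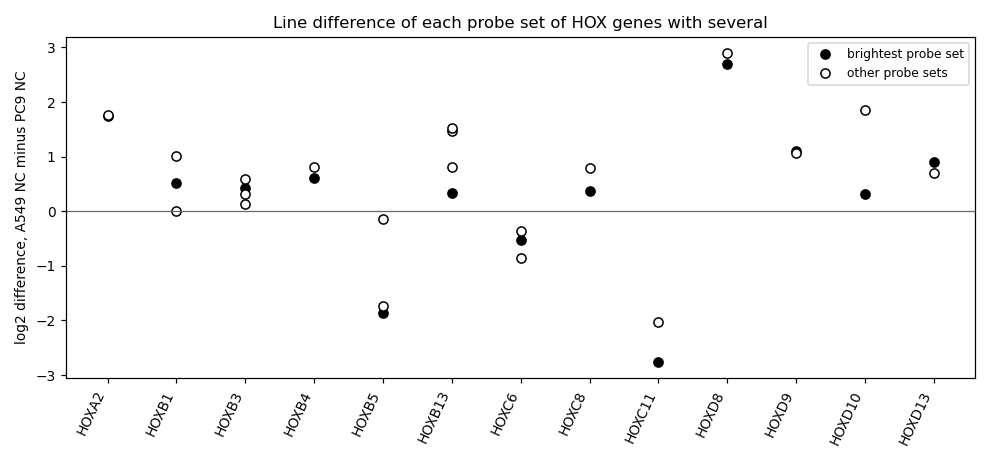
Difference between the vector cells on every probe set of the 13 HOX genes with several (y axis, log2 difference A549 NC minus PC9 NC; x axis, genes). The filled point is the brightest probe set and the open points are the others, and HOXD10 shows 0.32 on the filled point against 1.85 on the open one.

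EN2 changed no HOX gene past the threshold in A549 in the main fit. By limma, 0 of 29 were called, against 2.72% of all genes, and the lowest adjusted p was 0.057, for HOXB3. With the replicate number as a block HOXB3 passed (limma, adjusted p = 0.039), and 874 of all genes were called, against 496 in the main fit. At an unadjusted p under 0.05, 4 HOX genes were higher (13.8%, background 9.87%) and 0 lower (background 7.53%). The 4 became 2 without either A549 EN2 array and 3 without either A549 NC array. Both EN2 arrays lay above both NC arrays for 12 genes (41.4%, background 24.1%) and below them for 6 (20.7%, background 23.4%). The median change was 0.01, beside -0.0015 for all genes, and no 95% interval of a HOX gene went beyond 1 in either direction. The highest bound was 0.75, for HOXB3, and the lowest -0.44, for HOXD4.

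On the brightest probe sets HOXB3 had the largest difference in A549, and its neighbours in the list were in HOXD. HOXB3, a gene of hindbrain patterning, was at 8.15 and 7.84 in A549 EN2 against 7.58 and 7.41 in A549 NC, a difference of 0.49 ± 0.12. HOXD11 was at 6.19 and 5.93 in A549 EN2 against 5.68 and 5.70 in A549 NC, 0.37 ± 0.11 (limma, adjusted p = 0.11). HOXD9 was at 5.81 and 5.87 in A549 EN2 against 5.50 and 5.60 in A549 NC, 0.29 ± 0.09 (adjusted p = 0.13). The EN2 arrays lay above the NC arrays for all 3, and none passed. HOXD11 and HOXD9 were not above the stricter background in either A549 group. The order depends on the probe set: HOXD9 gave -0.05 on its dimmer one. The dimmer HOXD10 probe set gave 0.50 (limma over all probe sets, adjusted p = 0.065), against 0.07 on its brightest. Within HOXB3 the 4 probe sets gave 0.49, 0.37, 0.14 and 0.03, and on the mean of its probe sets the change was 0.26. HOXB3 passed without A549 EN2 replicate 2 (0.65, adjusted p = 0.026) and was 0.25 when A549 EN2 replicate 1 and A549 NC replicate 2, the outermost in 18S signal, were both left out. With the 18S signal as a covariate HOXB3 was at 0.04. In HOXD, 7 of 9 genes had a positive change, and in HOXB 3 of 10, against 49.3% of all genes. The HOXB count became 5 on the mean of the probe sets and 7 with the 18S covariate, and that of HOXD was 7 in both. The 18S signal was lower on both EN2 arrays than on both NC arrays in A549, and 4 of 6 epithelial markers (CDH1, EPCAM, KRT18 and KRT19) were called lower there. Their part in the HOX values was not tested beyond the fits given at the end.

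In PC9 no HOX gene was called either, but most changes were positive, with the highest median in HOXC among the clusters with several genes. By limma 0 of 29 passed, against 0.367% of all genes. At an unadjusted p under 0.05, 11 HOX genes were higher (37.9%, background 3.55%) and 0 lower (background 3.2%). The 11 became 7 without PC9 EN2 replicate 1, PC9 EN2 replicate 2 or PC9 NC replicate 1, and 12 without PC9 NC replicate 2. Both EN2 arrays lay above both NC arrays for 14 genes (48.3%, background 17.7%) and below them for 1, HOXD1 (3.45%, background 15.2%). The 11 and the 14 both include HOXD12, which like HOXD1 was below the spike-in measure on every array. The 14 also include HOXD3, which was below that measure in both PC9 groups. The change was positive for 23 of 29, against 52.0% of all genes, with a median of 0.14 beside 0.0040. The genes are neighbours in shared clusters and were read on the same 4 arrays, so they are not independent. The median was between 0.07 and 0.18 when any of the 4 PC9 arrays was left out, and lowest without PC9 NC replicate 1.

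HOXC held 8 positive changes of 9, a median of 0.34, and 7 of the 14 genes whose arrays did not overlap. HOXC13 was at 9.27 and 9.30 in PC9 EN2 against 8.72 and 8.95 in PC9 NC, a difference of 0.45 ± 0.10 (limma, SE; adjusted p = 0.15). HOXC11 was at 8.65 and 8.72 in PC9 EN2 against 8.22 and 8.33 in PC9 NC, 0.41 ± 0.15 (adjusted p = 0.63). HOXC8, a gene of thoracic skeleton patterning, was at 6.70 and 6.85 in PC9 EN2 against 6.49 and 6.27 in PC9 NC, 0.40 ± 0.10 (adjusted p = 0.25). The EN2 arrays were the higher ones for each of the 3, by 1.32- to 1.37-fold. HOXC6 and HOXC4 had differences of 0.39 and 0.34, HOXC9 of 0.27 and HOXC10 of 0.17. HOXC5 was at 0.05 and HOXC12 at -0.01, and HOXC12 was not above the spike-in measure in any group. The HOXC median was between 0.24 and 0.33 over the same omissions.

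The other clusters showed smaller changes with EN2 in PC9. HOXB5 was at 7.74 and 7.91 in PC9 EN2 against 7.51 and 7.48 in PC9 NC, a difference of 0.33. Its dimmer probe sets gave 0.0013 and -0.049, so that change rests on the brightest one. HOXA2 was at 4.51 and 4.49 in PC9 EN2 against 4.18 and 4.24 in PC9 NC, 0.29, both under the stricter background. HOXB6 had 0.24 and HOXB8 0.22. HOXB7 and HOXB9, with 0.02 and -0.06, lay near zero, and the HOXB median was 0.07. The HOXD median was 0.12 and turned to -0.02 without PC9 NC replicate 1. Of the 13 genes with several probe sets, 9 had the same sign on each in PC9 and 6 in A549, and 0 of 49 HOX probe sets were called in A549 (background 2.03%) or in PC9 (background 0.278%). At an unadjusted p under 0.05 there were 7 of 49 in A549 (background 16.3%) and 15 of 49 in PC9 (background 6.35%).

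**Figure D4:**
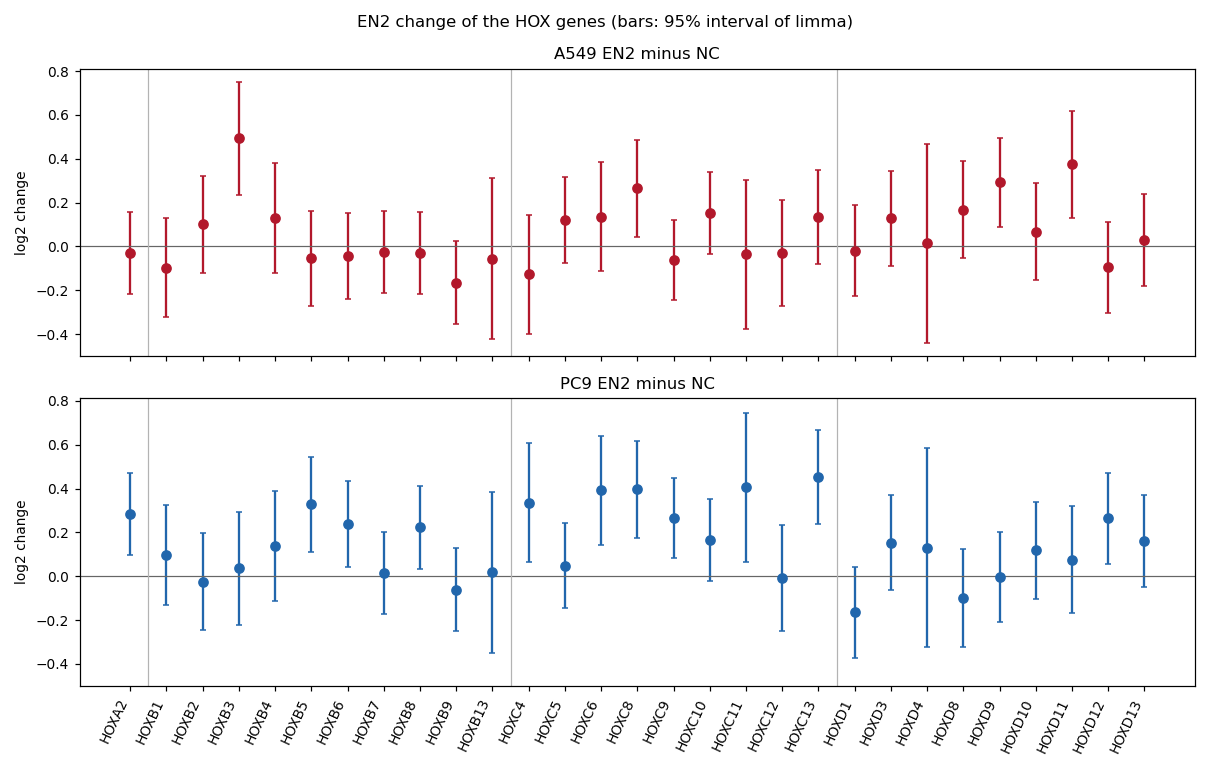
Change of each HOX gene with EN2 in A549 (upper panel) and in PC9 (lower panel). The y axis is the log2 change EN2 minus NC with the 95% interval of limma, the x axis gives genes by cluster and paralog number, and in PC9 8 of 9 HOXC points lie above 0.

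No HOX gene was shown to respond differently in the lines. For the A549 change minus the PC9 change, 0 of 29 HOX genes were called by limma, against 0.784% of all genes. At an unadjusted p under 0.05, 2 were positive (6.9%, background 6.37%) and 7 negative (24.1%, background 5.55%). The median difference was -0.10. HOXC4 had the most negative value, -0.46 (95% interval -0.85 to -0.08, adjusted p = 0.32), and HOXB3 the most positive, 0.46 (0.09 to 0.82, adjusted p = 0.30). The intervals of all 29 lay within -0.92 and 0.82.

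Cofactors and regulators of HOX genes were mostly not called with EN2, apart from MEIS2 in PC9 and EZH2 in A549. Of 8 measured PBX, MEIS and PKNOX genes, 0 were called in A549 and 1, MEIS2, was lower in PC9. MEIS2, a homeodomain cofactor of HOX proteins, was at 7.34 and 7.13 in PC9 EN2 against 8.06 and 8.02 in PC9 NC, a change of -0.81 ± 0.09 (limma, SE; adjusted p = 0.0059). In A549 it was at 6.85 and 6.95 with EN2 against 6.93 and 6.89 with NC, and the difference between the lines, 0.80 ± 0.13, passed (limma, adjusted p = 0.031). The PC9 call was lost with the PC9 arrays alone (adjusted p = 0.057), and with the removal of PC9 EN2 replicate 2 (0.057), PC9 NC replicate 1 (0.070) or PC9 NC replicate 2 (0.055). On the mean of its probe sets the change was -0.48. For PKNOX1 the A549 change was 0.40 (adjusted p = 0.069). Its PC9 change was 0.29 (adjusted p = 0.52).

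Among 11 measured Polycomb genes EZH2 alone was called with EN2 in A549 and 0 were called in PC9. EZH2, the methyltransferase of a Polycomb repressive complex, was at 8.52 and 8.55 in A549 EN2 against 8.11 and 8.16 in A549 NC, a change of 0.40 ± 0.07 (limma, SE; adjusted p = 0.021). In PC9 it was at 10.47 and 10.43 with EN2 against 10.69 and 10.55 with NC, a change of -0.17 (adjusted p = 0.72), and the difference between lines was 0.57 ± 0.10 (adjusted p = 0.040). Leaving out any 1 of the 4 A549 arrays ended the A549 call (0.38 to 0.42, adjusted p = 0.056 to 0.12). It also ended with the A549 arrays alone (adjusted p = 0.12) and on the mean of the probe sets (0.25, adjusted p = 0.19). None of 9 trithorax and demethylase genes, 11 ParaHox and retinoic acid genes, EVX1 and EVX2, or GMNN and CTCF was called with EN2 in either line. In the retinoic acid group the A549 changes of CYP26B1, 0.56 (adjusted p = 0.066), and RARB, -0.47 (adjusted p = 0.11), did not pass.

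Between the vector cells many of these genes differed too, beside the background of 46.0% higher and 29.7% lower. In A549 NC, 3 of the 8 cofactors were higher and 3 lower, with MEIS2 and PBX2 both at -1.13 and MEIS1 at 1.04. MEIS1 was below the spike-in measure on both PC9 NC arrays and on A549 NC replicate 2, so its size is uncertain. Of the 11 Polycomb genes 4 were higher and 7 lower in A549 NC, with EZH2 at -2.49 and CBX7 at -2.06. Of the 11 ParaHox and retinoic acid genes 7 were higher and 2 lower, among them RARB at 1.98. HOXB-AS3, the only one of 19 listed HOX cluster RNAs measured, was at -0.85.

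**Figure D5:**
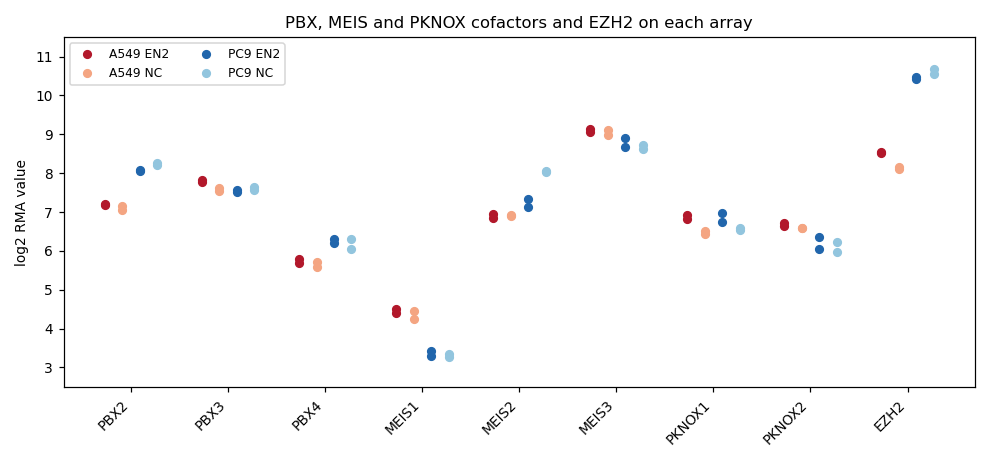
Level of the PBX, MEIS and PKNOX cofactors and of EZH2 on each array (y axis, log2 RMA value; x axis, genes; each point is an array, coloured by group). MEIS2 lies at 7.34 and 7.13 in PC9 EN2 and at 8.06 and 8.02 in PC9 NC, and EZH2 at 8.52 and 8.55 in A549 EN2 and at 8.11 and 8.16 in A549 NC.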

How the data were processed

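Total RNA of A549 and PC9 cells with EN2 or the Neo vector was biotin-labelled and measured on 8 single-colour arrays, in 4 groups of 2. The deposited values of 49495 probe sets were on the log2 scale after RMA, per the submitters' processing notes. With 2 arrays a group, precision is limited by their number. RMA version and genome build: not given in the sources used here.

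Of the probe sets, 45278 carried 1 symbol, 1333 several and 2878 none, with 202 control probe sets apart. A gene was read from its brightest probe set with 1 symbol, which gave 18244 genes. limma 3.58.1 in R 4.3.3 fitted a mean per group on all 8 arrays (lmFit, then eBayes with trend), which leaves 4 residual degrees of freedom. P-values are two-sided, adjusted by the Benjamini-Hochberg method over all 18244 genes, and called at an adjusted p under 0.05. The script was tested on simulated data.

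The HOX members, the comparisons and the lists were chosen with earlier results of these data known. HOX genes named with array values were the 3 of largest EN2 change in each line, where fewer than 3 were called, and the 16 called with the largest A549 NC minus PC9 NC difference. From the lists, genes called with EN2 were named, and EN2 itself. PKNOX1, CYP26B1, RARB, HOXB-AS3 and other genes given by value were picked with their values in view. The alternatives tried were quantile normalisation, a filter on dim genes, the mean of a gene's probe sets, a constant prior, the replicate number as a block, the 18S signal as a covariate, the line's arrays alone, and each array left out. Where 1 array of a group is omitted, the fit takes the remaining one to have the spread of the other groups. Bounds and the background of 20 G or C bases were added after the data were seen. Replicate numbers were checked for pairing, with correlations of deviations of 0.35 between the A549 groups and 0.07 between the PC9 groups. As the PC9 value was near 0, the numbers were not used as pairs in the main fit. Whether the A549 arrays of the same number shared an effect was not tested beyond the replicate block.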

Additional observations from a re-analysis of the deposited data

Results flagged for a closer look

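The change of MEIS2 with EN2 differed between the lines by 0.80 (A549 change minus PC9 change, limma, log2 scale), by a test of the difference itself. That of EZH2 differed by 0.57, by the same test. With single arrays left out, the MEIS2 difference passed without PC9 EN2 replicate 1 (adjusted p = 0.047) and under no other omission (0.060 to 0.12), and the EZH2 difference passed under none (0.076 to 0.17). Neither passed on the mean of the probe sets (adjusted p = 0.12 for MEIS2 and 0.24 for EZH2) or with the 18S signal as a covariate (0.87 with adjusted p = 0.35, and 0.61 with 0.38), and EZH2 did not pass with a constant prior (0.069). No check for a stray array could be made in groups of 2.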

How the results depend on the processing

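In A549 the count of HOX genes called with EN2 was 0 and became 1, HOXB3, with the replicate block, and ranged from 0 to 1 with each array left out. In PC9 and for the difference between lines it was 0 in each fit run. No call of a HOX gene other than HOXB3 changed with the replicate block in the EN2 comparisons. Between the vector cells the HOX counts ranged from 14 to 18 higher and from 6 to 8 lower with an array left out. With the 18S signal as a covariate, which nearly coincides with line, 0 were higher and 0 lower, and the difference reversed for HOXC11 (1.42), HOXD9 (-0.053), HOXD3 (-1.03), HOXB2 (-0.65), HOXB4 (-2.08) and HOXC6 (0.037). Outside that fit, all 144 values of the 16 named genes kept direction and call. These genes were picked as called genes of large difference. The constant prior, the replicate block and the filter on dim genes leave the estimate unchanged, so direction could not turn there. Among all genes, the A549 count of 496 became 874 with the replicate block, 92 with the A549 arrays alone, 20 with the 18S covariate, 25 without the A549 arrays of outermost 18S signal, a choice made after seeing the data, and 112 to 623 with an array left out. The PC9 count of 67 became 23 with PC9 arrays alone and 19 to 28 with an array left out. The count of 143 for the difference became 10 with the covariate and 40 to 124 with an array left out, and the line count of 13823 became 164 with the covariate. Fits on fewer arrays have fewer degrees of freedom, and otherwise the cause was not tested. Dim genes near background limit HOXD most.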
